A study of Homo sapiens with 36 samples.

Results

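Aminoacyl-tRNA synthetases are the enzymes that load each amino acid onto its transfer RNA. The 38 genes described here are 20 cytosolic synthetases, 16 mitochondrial synthetases (symbols ending in 2) and the 2 scaffold proteins AIMP1 and AIMP2. They were taken by name from 58219 genes in the RNA tables and 43582 in the ribosome footprint tables, and all 38 were present in every table. The group was selected on earlier results of these libraries, in which cytosolic synthetase RNA was lower after 72 h of actinomycin D, so the 72 h RNA values below are a description and support nothing by themselves.

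Each synthetase belongs to 1 of 2 structural classes, class I or class II, and joins its amino acid to the tRNA in an ATP-driven reaction. In human cells a separate nuclear gene usually encodes the enzyme that works in the mitochondrion, although GARS and KARS each encode both forms and were counted here as cytosolic. EPRS, IARS, LARS, MARS, QARS, RARS, KARS and DARS are held together with AIMP1 and AIMP2 in the multi-synthetase complex. Many cytosolic synthetase genes are known targets of ATF4, a transcription factor whose translation rises when amino acids are short or when other stresses phosphorylate eIF2, and ATF4 acts with a C/EBP-type partner at a composite DNA element.

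The samples were WiT49, a cell line from an anaplastic Wilms tumor, a childhood kidney cancer. Cells received 2 nM actinomycin D (actD), a DNA-binding inhibitor of transcription used in chemotherapy of this tumor, or its vehicle dimethyl sulfoxide (DMSO). Exposure lasted 6 h, 72 h or 2 weeks, where the 2 weeks were made up of 2 cycles of 7 days (drug or vehicle for 3 days, then plain medium for 4 days). At each of the 3 times there were 3 actD and 3 DMSO libraries of total RNA and as many of ribosome footprints, the stretches of mRNA that ribosomes protect from nuclease, which makes 36 libraries in 12 groups. All come from 1 cell line, and nothing in the labels says that replicates were separate cultures, so p-values measure the spread between these samples, which may be technical.

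RNA libraries held 40221994 to 69240041 counts and footprint libraries 152556 to 1281039, of which protein-coding genes took 2.12% to 40.4% in the footprint libraries. Of 12 Wilms tumor and nephron progenitor markers, 6 had a median above 1 CPM (a library's counts on the counts-per-million scale, with edgeR's TMM scaling between libraries) in the RNA libraries, as did 4 of 4 epithelial and 3 of 3 stromal markers, while the blood marker PTPRC and the endothelial markers PECAM1 and CDH5 did not. For the 2-week RNA libraries the title and the library name give opposite treatments, so those groups carry the library name here (named actd, named dmso), and every direction there turns over if the titles are right. Protein-coding genes took 54.3%, 57.8% and 62.4% of RNA counts with actD at 72 h, against 63.2%, 66.9% and 67.6% with DMSO. At 2 weeks the shares were 59.3%, 54.7% and 52.9% named actd against 61.1%, 62.0% and 62.5% named dmso. At 6 h they overlapped. The all-gene medians below take in noncoding genes too. The labels name 2 RNA extraction kits and 2 RNA library kits without saying which library used which.

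The promoter element comes first, because it is the sequence feature that the ATF4-linked synthetases could share. RefSeq promoters (GRCh38.p14, 250 bases before to 50 after a transcription start) were matched for 32 of the 38 members, 11 of them with more than 1 promoter, and were searched on both strands for TGATGNAA, the core of the composite element of ATF4 and its C/EBP partner. The element was found in 1270 of all 35116 promoters (3.62%). A member was counted when any of its promoters had it, which gave 7 of the 16 cytosolic synthetases with a promoter and 1 of 14 mitochondrial ones. The first share is thus per promoter and the others are per gene, which favours genes with more than 1 promoter. All 7 cytosolic genes, AARS, CARS, GARS, IARS, MARS, NARS and TARS, are on the list of 13 usually called ATF4 targets, of which 10 had a promoter. Their windows are shown on the gene's own strand, 5′ to 3′, with the element in capitals (TTGCATCA and TTTCATCA are the element read from the other strand):
AARS: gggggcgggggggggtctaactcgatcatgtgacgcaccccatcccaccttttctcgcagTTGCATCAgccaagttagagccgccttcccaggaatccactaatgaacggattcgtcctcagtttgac
CARS: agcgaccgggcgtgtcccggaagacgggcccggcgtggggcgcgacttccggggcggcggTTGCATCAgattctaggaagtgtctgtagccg
GARS: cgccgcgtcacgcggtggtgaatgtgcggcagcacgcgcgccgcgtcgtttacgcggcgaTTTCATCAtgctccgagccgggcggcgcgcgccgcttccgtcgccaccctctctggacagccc
IARS: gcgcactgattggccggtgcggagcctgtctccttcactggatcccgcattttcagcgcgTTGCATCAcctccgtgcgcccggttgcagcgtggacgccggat
MARS: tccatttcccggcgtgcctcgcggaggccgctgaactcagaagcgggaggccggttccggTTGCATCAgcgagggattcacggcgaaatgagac
NARS: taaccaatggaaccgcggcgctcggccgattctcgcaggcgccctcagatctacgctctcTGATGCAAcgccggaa
TARS: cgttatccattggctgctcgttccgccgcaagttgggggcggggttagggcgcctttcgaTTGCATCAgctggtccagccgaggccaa
The AARS window lies at chr16:70289626-70289753 (minus strand), CARS at chr11:3057394-3057485 (minus strand), GARS at chr7:30594785-30594907 (plus strand), IARS at chr9:92293668-92293770 (minus strand), MARS at chr12:57488004-57488097 (plus strand), NARS at chr18:57621807-57621882 (minus strand) and TARS at chr5:33440907-33440994 (plus strand). The first base of the element was at position -187 from the start in AARS, -33 in GARS, -13 in IARS, -4 in MARS, -2 in CARS, 3 in TARS and 15 in NARS, so that in 6 of the 7 it sat within 33 bases of the start. The mitochondrial match was in YARS2 at position -197 and read TGATGGAA. EPRS, SARS and WARS, also on the ATF4 list, had a promoter without these letters in the window.

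Other letters were searched for comparison, with shares and members counted in the same way. The NRF1 letters GCATGCGC (3.05% of all promoters) were found in MARS2 and YARS2, and the CREB palindrome TGACGTCA (1.85%) in AIMP2. The E-box CACGTG (7.26%) was found in AIMP2, CARS2, EARS2, IARS and MARS2, and the ETS letters CCGGAAGT (4.14%) in 8 members, among them HARS and HARS2, which lie head to head. A match describes letters and not binding. Among the ATF4-linked genes, the median log2 fold change in RNA at 72 h was -1.10 for the 7 with the element (from -2.08 to -0.64) and -1.40 for the 3 with a promoter without it (from -1.67 to -0.97), and the ranges overlapped.

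In vehicle-treated cells the cytosolic synthetases had the higher RNA levels as a class. RNA levels, in CPM per kilobase of exon, had a median of 20.5 for cytosolic and 6.43 for mitochondrial synthetases at 6 h, 21.6 and 3.64 at 72 h, and 22.1 and 4.96 in the 2-week libraries named dmso. At 6 h the arginyl enzyme RARS led with 79.6 ± 15.1 CPM per kilobase (SD, n = 3), followed by GARS with 51.9 ± 4.55, SARS with 51.5 ± 3.75, TARS with 51.3 ± 6.14 and AIMP2 with 50.6 ± 11.9, and these last 4 did not differ beyond their spread. IARS (41.4), FARSA (40.4), KARS (38.7), RARS2 (34.2) and DARS (33.8) came next, and RARS2 and YARS2 (26.0) were the highest mitochondrial enzymes. At the bottom were CARS with 2.82 ± 0.0964, LARS2 with 2.25 ± 0.205 and FARS2 with 1.52 ± 0.201. A cytosolic and a mitochondrial gene for the same amino acid were compared in 15 pairs. The cytosolic gene was the higher one in 13 at 6 h, 14 at 72 h and 12 in the libraries named dmso. At 6 h the ratio ran from 0.419 (YARS to YARS2) to 26.5 (FARSA to FARS2). EPRS also serves proline but was paired with EARS2 only, so PARS2 is in no pair. At 6 h EPRS was at 24.4 and PARS2 at 6.34 CPM per kilobase. These levels divide by all annotated exon bases, which exceed the coding bases unevenly. YARS has 8212 exon and 1584 coding bases, YARS2 has 2152 and 1431, and CARS has 10037 and 2605. The order of single genes and the ratios therefore depend on the length used, and no other length was tried.

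**Figure D1:**
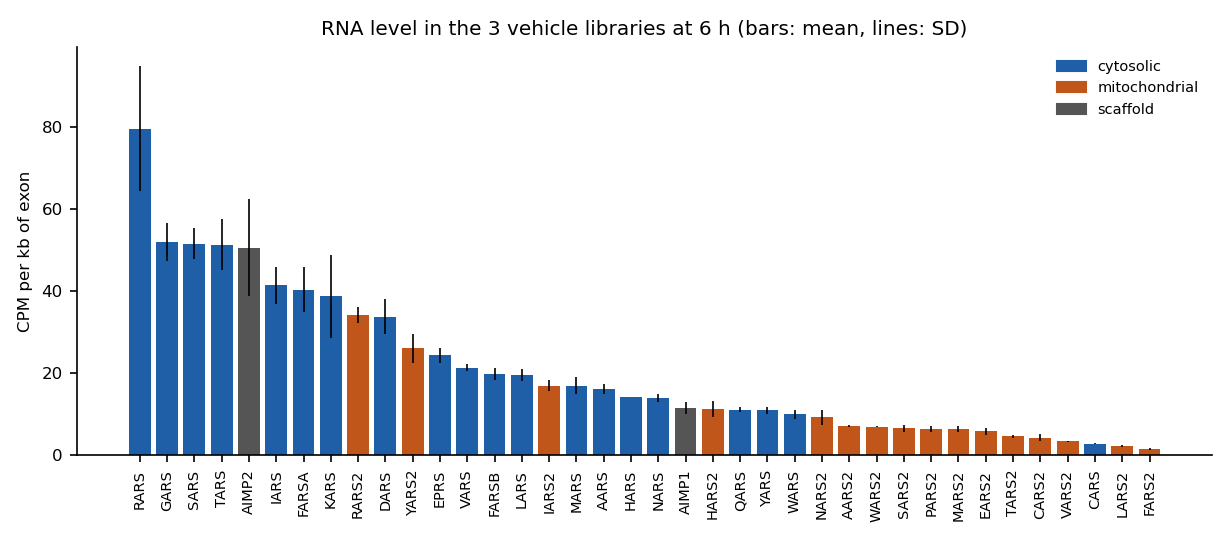
RNA level of the 38 genes in the 3 vehicle libraries at 6 h, in CPM per kilobase of exon (bars: mean, lines: SD), ordered by level and coloured by class. RARS was highest at 79.6 and FARS2 lowest at 1.52, and most mitochondrial enzymes stand in the right part of the plot.

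Some members share exon sequence with a neighbour in GENCODE release 29, and the sources used here do not state whether counting used strand. For 5 of them at least 10% of the exon length is shared with 1 other gene: SARS2 (46.2%, with a readthrough gene on its own strand), AIMP2 (28.9%, with EIF2AK1 on the other strand), VARS2 (21.99%, with GTF2H4), HARS2 (11.7%, with HARS) and AIMP1 (11.6%, with TBCK). Their values are less certain for that reason. MARS shares 5.05% of its exon length with DDIT3, itself a stress gene of the ATF4 pathway.

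After 72 h of actD the RNA of the cytosolic synthetases lay below the vehicle level in all 20 genes, with a median log2 fold change of -0.98, against -0.27 for the 16 mitochondrial synthetases and 0.02 for all 21195 genes tested. AARS showed the largest difference, 4.23-fold, and EPRS, CARS, SARS, YARS, GARS, QARS, IARS and LARS each had a log2 fold change below -1. In edgeR's quasi-likelihood test no member had an adjusted p under 0.05, a level that 1 gene in the whole table reached (0.00472%). At an unadjusted p under 0.05, 17 members were lower and none was higher, 14 of them cytosolic and 3 mitochondrial, while 7.78% of all genes were lower at that level. The 3 mitochondrial genes became 1 without the first or the second actD library, and the mitochondrial median was then -0.18 or -0.25. DESeq2 on the same counts called 10 members lower (2.26% of all genes), and a fit over all 3 time points called 14 (3.61% of all genes). In bulk RNA a smaller share of the library in every cell and a full loss in some cells cannot be told apart.

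AARS (chr16:70252295-70289543, hg38), the alanyl enzyme, was at 65.1, 99.98 and 113 CPM in the 3 DMSO libraries and at 19.0, 23.4 and 23.4 CPM in the 3 actD libraries. The actD values were close to each other and all below the lowest vehicle value, and the log2 fold change was -2.08 (SE 0.25, edgeR adjusted p 0.173; 4.8e-09 in DESeq2). EPRS (chr1:219968601-220046658), the fused glutamyl and prolyl enzyme of the complex, was at 216, 263 and 328 CPM with DMSO and 57.6, 65.5 and 131 CPM with actD. The third actD library was above the other two but below all vehicle libraries, and the log2 fold change was -1.67 (SE 0.35, adjusted p 0.231). YARS (chr1:32775237-32818153), the tyrosyl enzyme, was at 95.9, 87.3 and 148 CPM with DMSO and 44.3, 39.3 and 45.9 CPM with actD. The groups did not overlap, and the log2 fold change was -1.35 (SE 0.24, adjusted p 0.198).

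QARS (chr3:49095932-49105135), the glutaminyl enzyme, is in the complex but not on the ATF4 list, and was at 47.4, 59.7 and 85.7 CPM with DMSO against 24.9, 29.4 and 23.2 CPM with actD. All 3 actD libraries were below all vehicle libraries, with a log2 fold change of -1.31 (SE 0.26, adjusted p 0.204). LARS (chr5:146113038-146182660), the leucyl enzyme, was at 166, 180 and 226 CPM with DMSO and 75.6, 86.9 and 106.1 CPM with actD, a log2 fold change of -1.09 (SE 0.22, adjusted p 0.215). These 4 genes, AARS, YARS, QARS and LARS, had the smallest p of the members and are given in full for that reason. GARS (chr7:30594681-30634033), the glycyl enzyme, was at 244, 211 and 498 CPM with DMSO and 97.1, 104 and 175 CPM with actD, with a log2 fold change of -1.34 (SE 0.39). IARS (chr9:92210207-92293756), the isoleucyl enzyme, was at 373, 323 and 612 CPM with DMSO and 181, 180 and 247 CPM with actD, with a log2 fold change of -1.10 (SE 0.30). In both GARS and IARS the third vehicle library was well above the other two, and all actD values still lay below the lowest vehicle value.

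**Figure D2:**
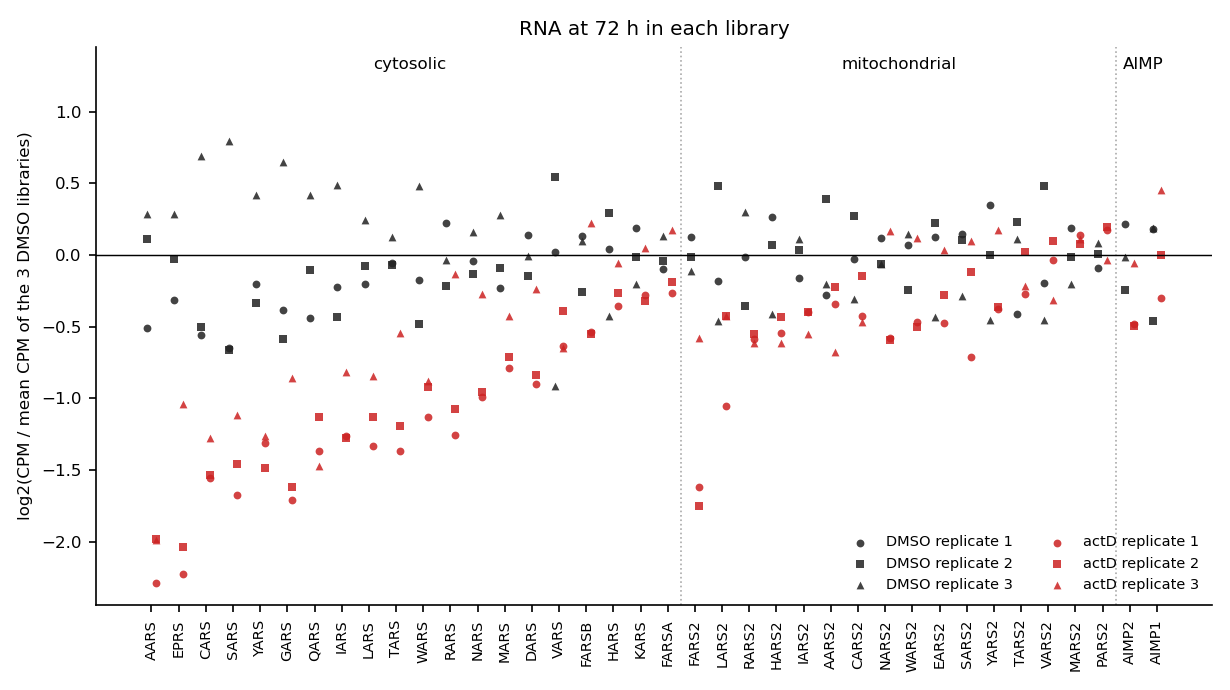
RNA of the 38 genes in each library at 72 h, as log2 of CPM over the mean CPM of the 3 DMSO libraries (black: DMSO, red: actD, symbols: replicate number), ordered by fold change within each class. The actD values of AARS lie near -2 in all 3 libraries, the third DMSO library is the highest for many cytosolic genes, and the mitochondrial values overlap for most genes.

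The cytosolic enzymes were not alike. The 13 on the ATF4 list had a median log2 fold change of -1.10, all 13 were lower, 12 had an unadjusted p under 0.05 (7.78% of all genes), and in 12 the groups did not overlap (10.3% of all genes). The other 7 (DARS, FARSA, FARSB, HARS, KARS, QARS and RARS) had a median of -0.24, and 2 of them, QARS and DARS, had an unadjusted p under 0.05. Without the third actD library the median of these 7 was -0.55 with 4 at that level, beside -1.28 for the 13, and without the third DMSO library it was -0.40 with 2, beside -0.87. Without the first or the second actD library, or the first DMSO library, 1 of the 7 was at that level, and without the second DMSO library the count was 2. The difference between the lists was not tested. The smallest differences among cytosolic genes were those of FARSA (-0.08, SE 0.20), KARS (-0.17, SE 0.20), HARS (-0.22, SE 0.23) and FARSB (-0.24, SE 0.26), each no larger than its error, and FARSA with FARSB forms the phenylalanyl enzyme. CARS (-1.45) and SARS (-1.40) stood with the leading genes, and between those and the smallest differences lay TARS (-0.99), WARS (-0.97), RARS (-0.73), NARS (-0.70), MARS (-0.64), DARS (-0.63) and VARS (-0.55). VARS was the exception on the ATF4 list, with vehicle values of 66.4, 95.4 and 34.8 CPM that spanned the actD values of 42.1, 50.01 and 41.8 CPM. The scaffolds AIMP1 and AIMP2 had log2 fold changes of 0.08 (SE 0.27) and -0.33 (SE 0.21). Membership of the complex did not separate the cytosolic genes, with a median of -0.91 for the 8 inside and -0.98 for the 12 outside. By structural class, the median was -1.10 for the 10 cytosolic enzymes of class I and -0.66 for the 10 of class II. Class and ATF4 list overlap, since only QARS and RARS of class I are off the list, but DARS, FARSA, FARSB, HARS and KARS of class II are. The class medians are therefore not separate from the list medians.

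Over all 38 members the actD libraries lay below all vehicle libraries in 18 genes, 14 cytosolic and 4 mitochondrial, and in 10.3% of all genes tested. FARS2 was the mitochondrial gene with the largest difference, at 6.57, 5.97 and 5.58 CPM with DMSO against 1.96, 1.79 and 4.03 CPM with actD (log2 fold change -1.22, SE 0.36). This gene encodes the mitochondrial phenylalanyl enzyme, and in vehicle-treated cells at 6 h it had the lowest RNA level per kilobase of all members. RARS2 (-0.58, SE 0.21) and IARS2 (-0.45, SE 0.18) were the other mitochondrial genes with an unadjusted p under 0.05. IARS2 was at 118, 136 and 143 CPM with DMSO and 100.3, 101 and 90.3 CPM with actD, so its groups did not overlap. LARS2 was at 16.3, 25.9 and 13.5 CPM with DMSO and 8.95, 13.8 and 13.8 CPM with actD (-0.61, SE 0.31). AARS2 was at 13.0, 20.7 and 13.8 CPM with DMSO and 12.5, 13.5 and 9.89 CPM with actD (-0.40, SE 0.26). VARS2 was at 9.02, 14.4 and 7.55 CPM with DMSO and 10.1, 11.1 and 8.32 CPM with actD (-0.07, SE 0.29). The groups overlapped narrowly in LARS2 and AARS2 and fully in VARS2. The remaining mitochondrial genes ran from HARS2 (-0.53) through CARS2, NARS2, WARS2, EARS2, SARS2, YARS2 and TARS2 to MARS2 and PARS2 (both 0.11), and none of these had an unadjusted p under 0.05.

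Set against its mitochondrial partner for the same amino acid, the cytosolic gene had the more negative log2 fold change in 13 of 15 pairs at 72 h, with a median difference of -0.72. Among these pairs the widest gap was AARS against AARS2 (-1.68). EPRS against EARS2 (-1.44), SARS against SARS2 (-1.19) and YARS against YARS2 (-1.19) followed. The exceptions were FARSA against FARS2 (1.13) and HARS against HARS2 (0.30). EPRS also serves proline, but EPRS (-1.67) against PARS2 (0.11) was not among the 15 pairs, and that gap was wider than any of theirs. At 6 h the cytosolic gene was the more negative in 11 of 15 pairs and at 2 weeks in 9, with median differences of -0.08 and -0.04.

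**Figure D3:**
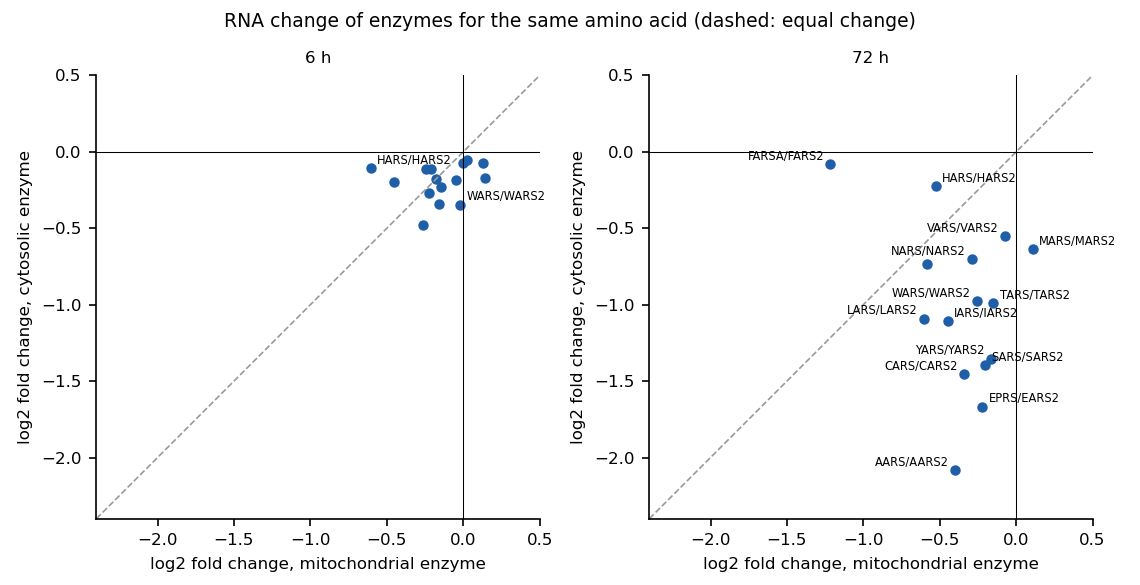
Log2 fold change in RNA (actD minus DMSO) of the cytosolic enzyme against that of the mitochondrial enzyme for the same amino acid, 15 pairs, at 6 h and 72 h (dashed line: equal change). EPRS is paired with EARS2 only, and PARS2 is not shown. At 72 h 13 of 15 pairs lie below the line, and at 6 h 11 of 15 do, closer to the line.

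The third DMSO library at 72 h stood apart in these genes. It held the highest vehicle value in 12 of the 13 ATF4-linked synthetases, with a median log2 ratio to the mean of the other vehicle libraries of 0.45, against 40.0% of all genes with their highest vehicle value there. In a list of 24 amino acid response genes, of which 23 were tested, all 23 were highest in that library, with a median log2 ratio of 1.34. Among the mitochondrial synthetases 4 of 16 were highest there, with a median of -0.29. Against the mean of the first and second DMSO libraries, the actD mean was still lower in 20 of 20 cytosolic genes (median log2 -0.76) and in 14 of 16 mitochondrial genes (median -0.37). With that library left out of the fit, the difference between the cytosolic and the mitochondrial median shrank from -0.71 to -0.40. On the actD side the third library lay closest to the vehicle, with a median log2 ratio to the vehicle mean of -0.73 over cytosolic genes against -1.26 and -1.10 in the first and second. The part of these libraries in the result was not tested further. Summed Wilms tumor markers ran from 2004 to 2231 CPM with actD and from 2029 to 2406 CPM with DMSO at 72 h. That sum is weighted to IGF2, LIN28B and VIM, with medians of 1507, 237 and 211 CPM over the RNA libraries. It says little of SIX2, CITED1, PAX2, PAX8, EYA1 and SALL1, whose medians were 0.48 CPM or less. Stromal markers ran from 1551 to 2547 CPM with actD and from 1342 to 1716 CPM with DMSO, and epithelial markers from 998.5 to 1677 CPM and from 1071 to 2169 CPM, with overlapping ranges in all 3 lists.

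Genes that work with the synthetases were followed as fixed lists, chosen like the members with earlier results known. Of 23 amino acid response genes tested at 72 h, 21 were lower, 14 at an unadjusted p under 0.05 (7.78% of all genes), with a median log2 fold change of -1.04. Those with the smallest p were PHGDH (-2.30) and PSAT1 (-2.21), enzymes of serine synthesis, SHMT2 (-1.50), which moves the serine carbon into folate, and ALDH18A1 (-1.06) of proline synthesis. Without the third DMSO library the median of that list was -0.40. A list of 12 genes held tRNA delivery and proofreading factors, their partners, and partners of the multi-synthetase complex. Of these, 10 were lower and 9 had an unadjusted p under 0.05 (7.78% of all genes), with a median of -0.73. Among the 9 were the elongation factor genes EEF1A1 (-1.16), EEF1D (-0.71) and EEF1B2 (-0.69), and DTD1 (-0.76), which removes D-amino acids from tRNA. These 9 became 3 without the first or the second actD library, 6 without the third, and 5 without the third DMSO library, where the median was -0.47. The 17 genes of mitochondrial translation had a median of -0.08, and the only one at an unadjusted p under 0.05 was MTRF1L, a mitochondrial release factor gene, which was higher (0.52), as were 5.27% of all genes at that level. Of 17 genes that mature or export tRNA, 4 were lower at that level, as were 7.78% of all genes, and the median was 0.07. The 4 were TSEN15 (-1.66), POP1 (-1.15), the tRNA exporter gene XPOT (-0.98) and the tRNA ligase gene RTCB (-0.78). That 4 became 2 without the second or the third actD library, and the median ran from -0.12 (without the third DMSO library) to 0.11 (without the first actD library). No gene of these 4 lists had an adjusted p under 0.05 in edgeR.

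At 6 h the differences in RNA were small in both classes. The median log2 fold change was -0.15 for cytosolic and -0.15 for mitochondrial synthetases against 0.02 for all 22669 genes, and 31 of 38 members were lower. No member and no gene had an adjusted p under 0.05 in edgeR (0.0%). At an unadjusted p under 0.05, 5 members were lower, against 4.54% of all genes, and DESeq2 called HARS2 alone (adjusted p 0.0491), with 0.635% of all genes called lower by it. The actD libraries lay below all vehicle libraries in 7 members and in 8.17% of all genes.

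The 4 members with the smallest p at 6 h were HARS2, AARS, VARS and FARS2. HARS2, the mitochondrial histidyl enzyme, was at 41.5, 49.2 and 35.2 CPM with DMSO and 29.1, 28.0 and 25.6 CPM with actD, without overlap (log2 fold change -0.61, SE 0.14, adjusted p 0.364). AARS was at 66.0, 75.8 and 75.6 CPM with DMSO and 56.3, 55.3 and 44.7 CPM with actD, also without overlap (-0.48, SE 0.13, adjusted p 0.451). VARS, the valyl enzyme, was at 133, 124 and 131 CPM with DMSO and 101, 113 and 92.9 CPM with actD (-0.34, SE 0.12). FARS2 was at 8.11, 7.73 and 6.26 CPM with DMSO and 4.44, 5.57 and 6.17 CPM with actD (-0.45, SE 0.18). In all 4 genes every actD value was below every vehicle value, by a hair in FARS2. EPRS was at 122, 140 and 137 CPM with DMSO and 121, 113 and 96.9 CPM with actD (-0.27, SE 0.13), with the groups barely apart.

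Of the other examples followed at every time, GARS was at 223, 230 and 194 CPM with DMSO and 189, 202 and 185 CPM with actD at 6 h, and IARS at 337, 310 and 272 CPM and at 300.2, 306 and 280 CPM. LARS2 was at 16.9, 15.02 and 14.1 CPM with DMSO and 20.4, 13.6 and 17.0 CPM with actD, and IARS2 at 76.3, 70.3 and 65.3 CPM and at 77.8, 64.9 and 72.7 CPM. AARS2 was at 29.2, 31.1 and 30.8 CPM with DMSO and 28.2, 27.4 and 20.2 CPM with actD, and VARS2 at 27.7, 28.7 and 28.95 CPM and at 25.5, 29.3 and 21.9 CPM. Among these 6 the groups overlapped in all but AARS2, which had a log2 fold change of -0.26 (SE 0.15).

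In the 2-week RNA libraries the values named actd minus named dmso had a median log2 fold change of -0.23 in cytosolic and -0.19 in mitochondrial synthetases, against -0.02 for all 21137 genes. No member and no gene had an adjusted p under 0.05 in edgeR (0.0%), nor any member in DESeq2. At an unadjusted p under 0.05, 11 members were lower in the libraries named actd, 6 cytosolic and 5 mitochondrial, against 4.93% of all genes. In 11 members the libraries named actd lay below all those named dmso, against 7.83% of all genes. QARS was the 1 member that lay above, as did 7.86% of all genes (110, 117 and 126 CPM named actd against 104, 105.9 and 109.4 CPM named dmso). All of these directions turn over if the titles are the correct labels.

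The members with the smallest p there were AARS2, CARS, AARS and FARS2. AARS2 was at 31.9, 30.6 and 24.9 CPM named dmso and 22.04, 23.5 and 19.2 CPM named actd (log2 fold change -0.43, SE 0.14, adjusted p 0.465). CARS, the cysteinyl enzyme, was at 38.5, 40.7 and 36.52 CPM and at 33.3, 28.7 and 30.1 CPM (-0.33, SE 0.11). AARS was at 95.0, 106.6 and 91.1 CPM and at 87.3, 54.2 and 59.4 CPM (-0.54, SE 0.19). FARS2 was at 5.67, 5.79 and 6.76 CPM and at 4.94, 4.28 and 3.34 CPM (-0.53, SE 0.19). The groups did not overlap in any of these 4. In cytosolic genes the first library named actd sat with the libraries named dmso, with a median log2 ratio to their mean of -0.01, while replicates 2 and 3 were at -0.41 and -0.23.

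EPRS shows this pattern, at 240.5, 262 and 250 CPM named dmso and 233, 144 and 177 CPM named actd (-0.44, SE 0.18). GARS was at 193, 217 and 213 CPM and at 188, 146 and 173 CPM, and IARS at 268, 316 and 286 CPM and at 295, 217 and 262 CPM. LARS2 was at 24.5, 18.4 and 21.9 CPM and at 21.1, 15.6 and 14.8 CPM, and IARS2 at 119, 114 and 118 CPM and at 107.9, 90.2 and 112 CPM. VARS2 was at 24.7, 21.5 and 14.6 CPM named dmso and 14.7, 14.8 and 11.4 CPM named actd, the most negative log2 fold change of the members (-0.57, SE 0.21).

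**Figure D4:**
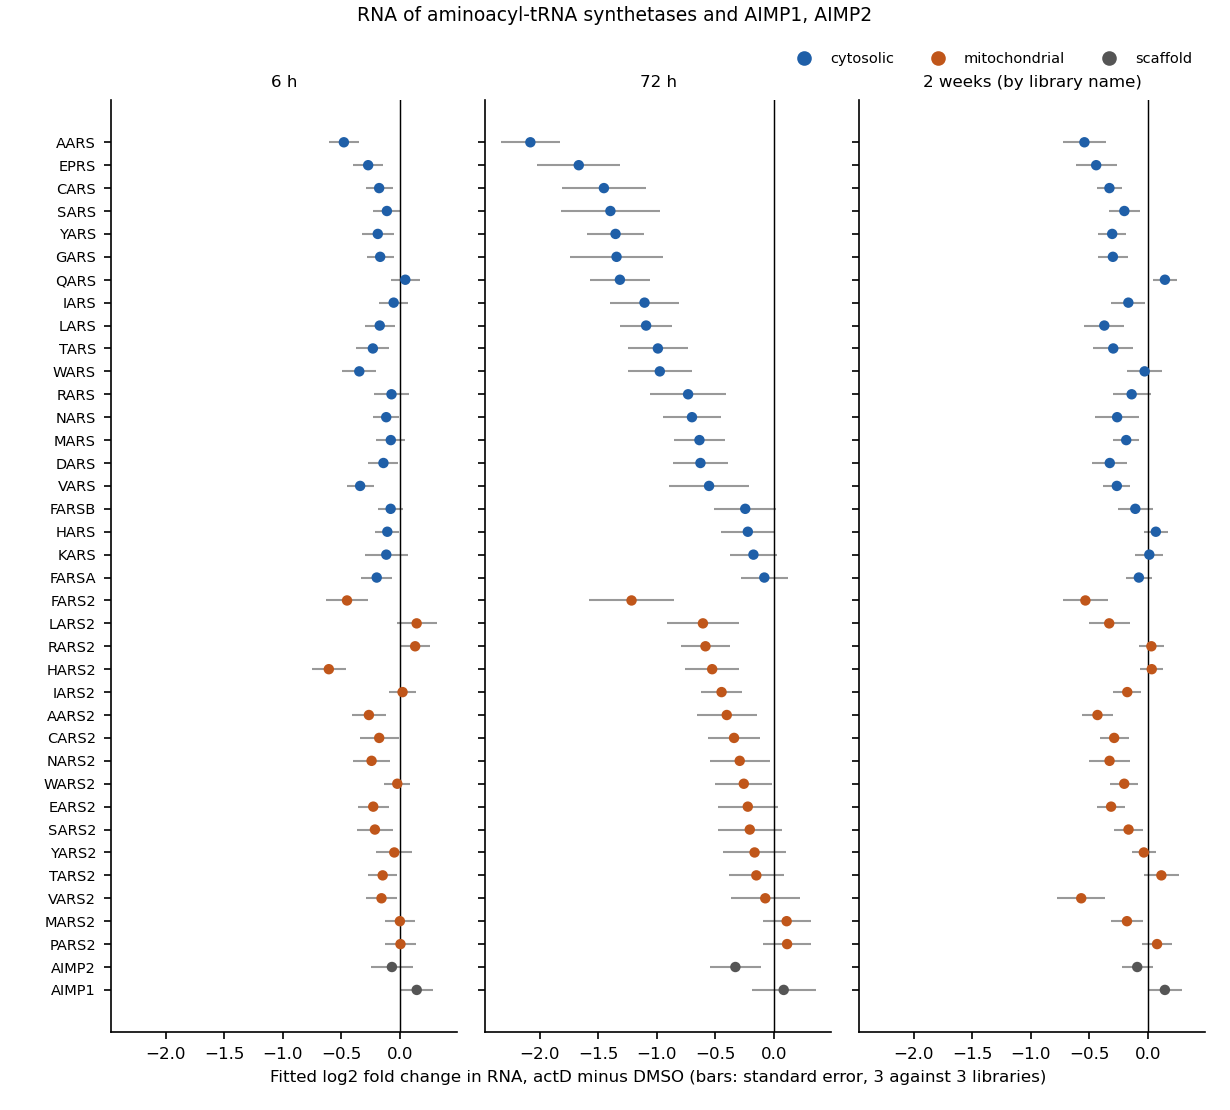
Fitted log2 fold change in RNA (points) with its standard error (bars) for the 38 genes at 6 h, 72 h and 2 weeks, 3 against 3 libraries each, coloured by class and ordered as at 72 h. The scale is shared: values reach -2.08 at 72 h in AARS, but no further than -0.61 at 6 h and -0.57 at 2 weeks.

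The actD effect in RNA was compared between 72 h and 6 h in 1 model. It was more negative at 72 h in 19 of 20 cytosolic genes (median difference -0.72 on the log2 scale) and in 12 of 16 mitochondrial genes (median -0.10), against -0.03 for all genes. No member had an adjusted p under 0.05 in edgeR, and 4 genes of 24251 did (0.0165%). At an unadjusted p under 0.05 there were 13 members, all more negative at 72 h, against 5.18% of all genes, and DESeq2 called AARS, QARS and YARS, with 0.507% of all genes called more negative by it. The differences were -1.62 (SE 0.28, adjusted p 0.143) for AARS, -1.39 (SE 0.29, adjusted p 0.233) for QARS, -1.18 (SE 0.29) for YARS and -0.94 (SE 0.26) for LARS. This comparison uses the same 72 h libraries and is not independent of the values above.

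Footprints gave far fewer counts, and not in proportion to RNA. Of the 38 members, 10 had a count above 0 in all 18 footprint libraries, 8 were listed at 0 in at least 15, and DARS and RARS2 were listed at 0 in all 18 although their RNA had 3257 to 10745 and 3342 to 8914 counts per library. AARS had 5 footprint counts in all 18 libraries together and KARS 2, against 967 to 7804 and 4211 to 12926 RNA counts in a library. The number of footprint counts per 1000 RNA counts, summed over libraries, ran from 0.0162 in KARS and 0.0735 in AARS to 9.35 in VARS and 10.9 in TARS2. A gene listed at 0 in these tables may be a failed estimate, and the reason was not tested. GARS had 3, 1 and 2 counts in the DMSO libraries at 72 h and 0 in each actD library, and IARS had 11, 8 and 1 with DMSO and 3, 2 and 5 with actD. LARS2, IARS2, VARS2 and AARS2 had at most 4 counts in any footprint library, so no difference was detectable for them at these counts.

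At 72 h 14 members passed the filter on low counts in footprints, 11 cytosolic, the mitochondrial TARS2 and YARS2, and AIMP2. Footprints of 10 of the 11 cytosolic enzymes were lower with actD, with a median log2 fold change of -0.98 against 0.07 for all 2426 genes tested. No member had an adjusted p under 0.05 in edgeR, while 3.79% of all genes did. At an unadjusted p under 0.05, 5 members were lower (EPRS, QARS, SARS, YARS and VARS) against 13.1% of all genes, and in the same number the actD libraries lay below all vehicle libraries, against 16.2% of all genes. DESeq2 called EPRS alone, with 2.02% of all genes called lower by it.

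EPRS had 60, 37 and 10 footprint counts with DMSO, which is 136, 124 and 124 CPM, and 10, 5 and 43 counts with actD, which is 14.9, 13.6 and 51.1 CPM. The vehicle libraries agreed closely in CPM and the third actD library stood above the other two, with a log2 fold change of -2.20 (SE 0.54, edgeR adjusted p 0.0632, DESeq2 adjusted p 0.0332). QARS was at 115, 121 and 112 CPM with DMSO and 58.2, 51.7 and 44.0 CPM with actD, without overlap and with a log2 fold change of -1.18 (SE 0.31, adjusted p 0.0732). In the third DMSO library 3 counts make 37.3 CPM, so the value of a single gene there rests on few counts, and close agreement with the other libraries says little. SARS, the seryl enzyme, was at 49.8, 50.3 and 74.6 CPM with DMSO and 25.4, 32.6 and 26.2 CPM with actD (-0.98, SE 0.32, adjusted p 0.107). YARS was at 56.6, 40.2 and 87.1 CPM with DMSO and 16.4, 32.6 and 29.7 CPM with actD (-1.12, SE 0.42, adjusted p 0.136).

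VARS was at 287, 278 and 174 CPM with DMSO and 140.4, 139 and 99.9 CPM with actD (-0.99, SE 0.39). LARS was at 79.2, 50.3 and 49.7 CPM with DMSO and 0, 10.9 and 65.4 CPM with actD, where the third actD library lay among the vehicle values (-1.18, SE 1.02). The other cytosolic values were NARS at -0.92, MARS at -0.73, RARS at -0.50, FARSA at -0.09 and HARS at 0.36. TARS2 and YARS2 were at -0.11 (SE 0.37) and 0.23 (SE 0.43). AIMP2, a scaffold of the complex, had the opposite sign, at 129, 23.5 and 12.4 CPM with DMSO and 155, 114 and 177 CPM with actD, with the first vehicle library among the actD values (1.25, SE 0.68, adjusted p 0.264). Its value in the third DMSO library is below the 37.3 CPM that 3 counts make there.

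**Figure D5:**
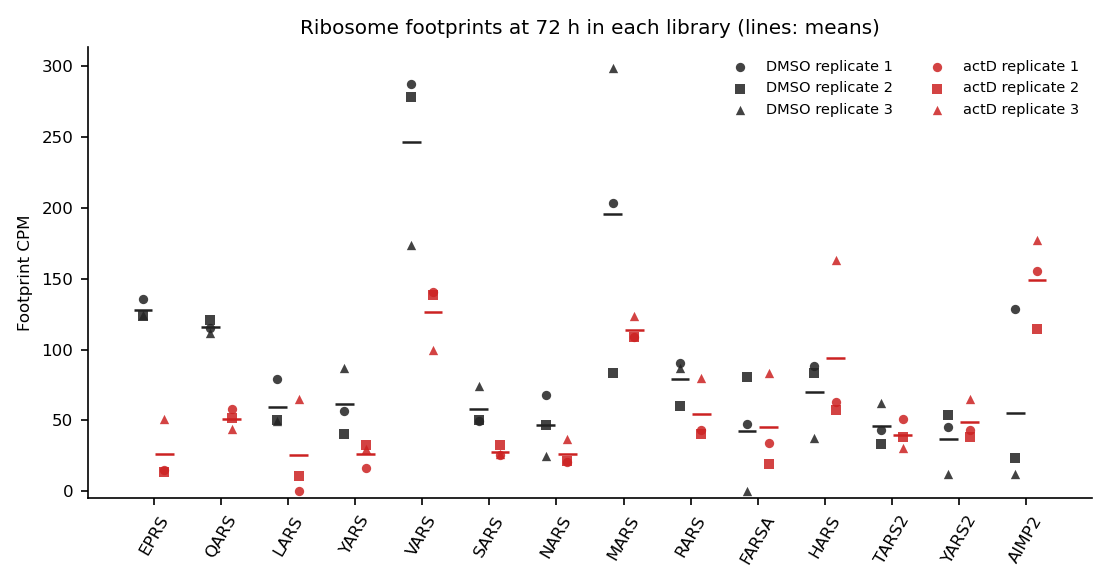
Footprint CPM of the 14 members tested at 72 h in each library (black: DMSO, red: actD, symbols: replicate number, lines: group means), ordered by fold change within each class. EPRS, QARS, YARS, VARS and SARS show actD libraries below all vehicle libraries, and AIMP2 with actD lies above vehicle replicates 2 and 3.

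At 6 h 7 members were tested in footprints and at 2 weeks 10, with no mitochondrial enzyme at either time, and no member or other gene had an adjusted p under 0.05 in edgeR (0.0% both times) nor any member in DESeq2. At 6 h no member had an unadjusted p under 0.05, and the smallest p belonged to VARS, HARS, SARS and AIMP2. VARS was at 67.3, 57.1 and 52.5 CPM with DMSO and 26.9, 45.0 and 38.2 CPM with actD, without overlap (-0.69, SE 0.36). HARS was at 25.5, 19.48 and 15.7 CPM with DMSO and 0, 10.6 and 29.2 CPM with actD (-0.63, SE 0.98). SARS was at 18.4, 20.8 and 13.1 CPM with DMSO and 18.6, 13.2 and 33.7 CPM with actD (0.31, SE 0.48). AIMP2 was at 36.7, 24.7 and 26.2 CPM with DMSO and 4.13, 0 and 51.7 CPM with actD (-0.64, SE 1.09), and the spread among its actD libraries exceeds any group difference. EPRS and IARS did not pass the filter at 6 h, with 27, 11 and 6 EPRS counts with DMSO and 6, 0 and 11 with actD, and 22, 8 and 0 IARS counts with DMSO and 7, 1 and 2 with actD. GARS had 2, 8 and 0 counts with DMSO and 2, 7 and 0 with actD at 6 h.

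At 2 weeks HARS footprints, at 10.8, 9.001 and 13.6 CPM with DMSO, were at 17.1, 22.8 and 23.3 CPM with actD. That difference, 0.94 on the log2 scale (SE 0.28, adjusted p 0.527), was the 1 member with an unadjusted p under 0.05, a level at which 4.07% of all genes were higher. EPRS was at 15.5, 34.2 and 31.7 CPM with DMSO and 23.9, 14.8 and 11.7 CPM with actD (-0.69, SE 0.39). AIMP2 was at 21.7, 4.50 and 37.7 CPM with DMSO and 19.4, 4.56 and 4.37 CPM with actD (-1.0, SE 0.83), and LARS at 15.5, 17.1 and 21.1 CPM with DMSO and 23.9, 3.42 and 5.83 CPM with actD (-0.64, SE 0.61). IARS was at 23.2, 18.002 and 3.02 CPM with DMSO and 26.2, 9.12 and 10.2 CPM with actD (0.03, SE 0.63). The groups overlapped in EPRS, AIMP2, LARS and IARS. GARS had 4, 9 and 0 counts with DMSO and 0 in each actD library.

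Between times, the actD effect on footprints was more negative at 72 h than at 6 h in 10 of 12 cytosolic enzymes tested (median difference -0.52, all genes 0.22), with -1.15 (SE 0.54) for SARS, -0.88 (SE 0.46) for QARS, -1.49 (SE 1.02) for EPRS and 2.11 (SE 1.36) for AIMP2. No member or other gene of 3012 had an adjusted p under 0.05 in edgeR (0.0%), no member had an unadjusted p under 0.05, and DESeq2 called none. From 72 h to 2 weeks the effect was higher in 13 of 13 cytosolic enzymes tested (median difference 0.85, all genes -0.12). The values were 2.01 (SE 0.88) for IARS, 1.37 (SE 0.60) for NARS, 1.08 (SE 0.52) for QARS, 1.39 (SE 0.70) for EPRS and -2.44 (SE 1.15) for AIMP2. No member had an adjusted p under 0.05 in edgeR and 2 genes of 3760 did (0.0532%), IARS and NARS had an unadjusted p under 0.05 (2.98% of all genes were higher at that level), and DESeq2 called no member. The 2 time contrasts share the 72 h libraries.

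Translational efficiency, the footprint change beyond the RNA change, was tested as the interaction of assay and treatment. At 72 h the 11 cytosolic enzymes had a median of -0.16 on the log2 scale (all genes 0.03), with 5 values above 0 and 6 below. EPRS was at -0.64 (SE 0.66), VARS at -0.63 (SE 0.46), NARS at -0.37 (SE 0.47) and AIMP2 at 1.36 (SE 0.66, adjusted p 0.367). No member had an adjusted p under 0.05 in edgeR, and 0.433% of the genes tested did. AIMP2 reached an adjusted p of 0.0251, with a difference of 3.01, when the first DMSO footprint library was left out, which is the library that lay among the actD values.

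At 6 h the values were -0.36 (SE 0.27) for VARS, 0.40 (SE 0.31) for SARS, -0.62 (SE 0.67) for HARS and -0.68 (SE 0.84) for AIMP2. At 2 weeks, where the RNA side uses the library names, they were 0.82 (SE 0.27, adjusted p 0.879) for HARS, -0.97 (SE 0.78) for AIMP2, 0.35 (SE 0.32) for MARS and -0.31 (SE 0.43) for EPRS. No member or other gene had an adjusted p under 0.05 in edgeR at 6 h (0.0% of 951 genes) or at 2 weeks (0.0% of 1441). At an unadjusted p under 0.05 there was no member at 6 h or 72 h and HARS at 2 weeks, where 2.71% of all genes were higher at that level, and DESeq2 called no member at any of the 3 times.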

How the data were processed

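Total RNA and ribosome footprints were measured in 36 libraries of WiT49 cells. The authors deposited 6 tables of expected counts per gene, 1 per assay and time, with 1 column per library. Reads were aligned to hg38 and processed with HISAT2 and StringTie, per the submitters' processing notes; versions, annotation, the counting program and the use of strand are not given in the sources used here. The deposited values were already whole numbers, so rounding changed nothing, but small values in the 6 h and 2-week RNA tables pile up at steps of more than 1 count, so no lower limit is given for them here.

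Each table was fitted whole with edgeR 4.0.16 (R 4.3.3, filterByExpr, TMM scaling, quasi-likelihood test, two-sided), with Benjamini-Hochberg adjustment over all genes tested and a threshold of 0.05. CPM use the TMM-scaled library sizes. A standard error is the size of the log2 fold change divided by the square root of the F statistic. Translational efficiency and time effects are interaction terms in the same kind of fit. DESeq2 1.42.0, other scalings, a looser filter, 1 fit over all times, the replicate block and leaving out each library were alternatives. The scripts were tested on simulated data.

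Symbols, exon lengths and overlaps come from GENCODE release 29, and promoters from RefSeq. The members and lists were chosen with earlier results of these data known. All 38 members are named, and full values go to called members, or else to the 4 with the smallest p in a comparison, and to EPRS, AARS, GARS, IARS, LARS2, IARS2, VARS2 and AARS2 at every time. Of the other lists the 4 genes with the smallest p are named. Low footprint counts of single genes, in libraries of as few as 152556 counts, limit which members could be tested, and intervals and errors cover the spread between libraries only.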

Additional observations from a re-analysis of the deposited data

Results flagged for a closer look

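QARS, the gene of the glutaminyl enzyme, stood out because its direction differed between times without overlap of the libraries at either. This holds only when the 2-week RNA libraries are read by their names. At 72 h its RNA had a log2 fold change of -1.31, with every actD library below every DMSO library, and at 2 weeks it had one of 0.14, with every library named actd above every library named dmso, as in 7.86% of all genes tested there. The difference between these times was not tested, because the treatment of the 2-week RNA libraries is given in opposite ways by their titles and their names. By the titles QARS would be lower with actD at both times, and the flagged difference in direction would be gone.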

How the results depend on the processing

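Over alternatives other than leaving out a library, 80 of 85 summary values (counts of members called, and the cytosolic minus the mitochondrial median) stayed the same, and 5, all counts, moved. A count was taken as the same when equal, and a class difference when it moved by less than the pooled SD between replicates (in RNA 0.053 at 6 h, 0.32 at 72 h and 0.14 at 2 weeks, and 0.45 in footprints at 72 h). DESeq2 called 1 member in RNA at 6 h (HARS2), 10 in RNA at 72 h, 1 in footprints at 72 h (EPRS) and 3 in the RNA effect of 72 h against 6 h, and 1 fit over the 3 time points called 14 in RNA at 72 h, against 0 in each case in the separate edgeR fits. The cause of these gaps was not tested. Leaving out each library gave 0 to 2 members in footprints at 72 h (EPRS and LARS without the third actD library), 0 to 1 in translational efficiency at 72 h (AIMP2 without the first DMSO footprint library) and 0 to 1 in the RNA effect of 72 h against 6 h (EPRS without the third actD library at 72 h, AARS without the first DMSO library at 72 h). The cytosolic minus the mitochondrial median in RNA ranged from -0.096 to 0.010 at 6 h, from -0.095 to 0.037 at 2 weeks and from -0.90 to -0.40 at 72 h, the latter without the third DMSO library, and in footprints at 72 h from -1.14 to -0.78.

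Pairing by replicate number was checked by correlating deviations from the group means, with mixed results. Same-number actD and DMSO RNA libraries gave -0.077, -0.025 and -0.14 at 6 h, and different-number ones ran from -0.041 to 0.12. At 72 h the same-number ones gave 0.085, 0.23 and 0.15, and the different-number ones ran from -0.15 to -0.024. For footprints, same-number actD and DMSO libraries gave -0.71, -0.038 and -0.74 at 6 h. They gave 0.045, -0.034 and -0.030 at 72 h, and 0.34, -0.046 and 0.42 at 2 weeks. Same-number RNA and footprint libraries at 72 h gave 0.17, 0.20 and 0.43 with actD and 0.16, 0.088 and 0.19 with DMSO. At the other times these ran from -0.041 to 0.21. The main fits treated libraries as unpaired. With the replicate block 0 members were called in RNA, footprints and translational efficiency at every time, and the class difference in RNA at 72 h was -0.68. For single members, 340 of 374 values kept their side and direction, 19 became called and 15 turned over. With treatment by the titles, the 2-week RNA values became 0.43 for AARS2, 0.33 for CARS, 0.54 for AARS, 0.53 for FARS2, 0.44 for EPRS, 0.30 for GARS, 0.17 for IARS, 0.33 for LARS2, 0.18 for IARS2 and 0.57 for VARS2. SARS footprints at 6 h (0.31) became -0.35 with library totals. IARS footprints at 2 weeks (0.03) became -0.0041 with DESeq2 size factors, -0.085 with library totals, -0.013 with protein-coding totals and -0.036 with the replicate block. Leaving out a library gave ranges that crossed 0 for RNA at 6 h of IARS (-0.13 to 0.023), LARS2 (-0.0086 to 0.28) and IARS2 (-0.037 to 0.092), for RNA at 72 h of VARS2 (-0.26 to 0.24), and for footprints of SARS at 6 h (-0.12 to 0.48) and IARS at 2 weeks (-0.64 to 0.40). In footprints, 24 or more of the 38 members had too few counts to be tested at each time, so nothing can be said of them there. Why their counts were low was not tested.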
